A study of Mus musculus with 6 samples.

Results

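The core circadian clock and output genes were followed in the striatum of young mice whose sires had received methylphenidate or saline. The 10 genes Arntl, Clock, Npas2, Per1, Per2, Per3, Cry1, Cry2, Nr1d1 and Dbp were taken by symbol from a table of 45777 genes, and all 10 were found. All 10 also passed the filter on low counts and were among the 17874 genes tested. Offspring were 6 weeks old and of the outbred ICR strain. Their sires, 6 weeks old at the start, received methylphenidate at 15 mg/kg or saline at 10 mL/kg under the skin for 21 days and were mated with females given no drug. Methylphenidate, a drug for attention deficit hyperactivity disorder, inhibits the transporters that take dopamine and noradrenaline back into neurons. No offspring is stated to have been dosed itself.

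Each group, called control where sires had saline and MPH-sired where they had methylphenidate, had 3 libraries. The labels list 2 females and 1 male in each. All animals were kept under 12 hours of light and 12 hours of dark. The labels name neither the hour at which the striatum was taken nor the number of sires and litters. P-values therefore cover only the spread among these libraries, and littermates may be included. The libraries are called by group and the number in their column name, which ties none of them to a labelled animal or sex. Total counts ran from 31360042 to 38844724, and every pair of libraries differed by more than sampling noise (chi-square per gene of 8.41 or more). The unit of level is CPM, a count scaled to the size of its library. At the lowest count of any member (558 for Cry1 in MPH-sired library 2), counting error alone is 4.23% of the value. Medium spiny neurons make up most of the striatum, and their markers were high in every library, with Ppp1r1b between 1376 and 1898 CPM, Drd1 between 209 and 287 CPM and Drd2 between 219 and 278 CPM.

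The clock is a feedback loop of transcription. ARNTL (also called BMAL1) pairs with CLOCK or NPAS2 and activates genes that carry E-box sequences, among them the Per, Cry and Nr1d1 genes and Dbp. PER and CRY proteins then shut that activation down, while REV-ERB alpha, the product of Nr1d1, represses Arntl and related genes through ROR elements. DBP carries the rhythm to output genes through D-boxes. In most tissues Arntl and Npas2 peak at about the opposite phase to Per, Nr1d1 and Dbp, so that levels in an animal depend on the hour of dissection. The striatum has its own clock, and Per1 is also induced quickly by neuronal activity and by glucocorticoids.

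Promoter windows from RefSeq matched 9 of the 10 members, all but Per2, and span 250 bases before to 50 bases after an annotated start (build GRCm38.p6, the assembly that mm10 names). The search covered both strands for the E-box (CACGTG, present in 7.15% of all 32851 windows), the D-box (TTATGTAA or TTACGTAA, 1.06%), the ROR element (TAGGTCA or TGGGTCA, 6.45%) and the cAMP response element (TGACGTCA, 1.79%). No match overlapped another. The 250 bases before an annotated start are shown for the 3 members with a match there, and for Dbp. Dbp is shown as the member whose groups did not overlap, though it did not pass the edgeR test. For Arntl, 27 bases around a match after a start are shown. Sequences run 5′ to 3′ on the gene's strand, and capitals mark the matches.
Per1, chr11:69098699-69098948, plus strand: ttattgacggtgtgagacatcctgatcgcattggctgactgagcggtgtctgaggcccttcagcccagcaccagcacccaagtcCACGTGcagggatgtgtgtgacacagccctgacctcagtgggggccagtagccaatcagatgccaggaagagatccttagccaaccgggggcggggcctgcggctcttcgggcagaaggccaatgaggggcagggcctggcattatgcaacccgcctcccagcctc
Per3, chr4:151044666-151044915, minus strand: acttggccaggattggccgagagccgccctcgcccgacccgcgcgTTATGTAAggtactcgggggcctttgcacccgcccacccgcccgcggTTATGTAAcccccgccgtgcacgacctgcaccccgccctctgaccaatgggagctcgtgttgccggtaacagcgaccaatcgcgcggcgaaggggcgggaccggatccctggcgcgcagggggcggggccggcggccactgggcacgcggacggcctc
Cry1, chr10:85185055-85185304, minus strand: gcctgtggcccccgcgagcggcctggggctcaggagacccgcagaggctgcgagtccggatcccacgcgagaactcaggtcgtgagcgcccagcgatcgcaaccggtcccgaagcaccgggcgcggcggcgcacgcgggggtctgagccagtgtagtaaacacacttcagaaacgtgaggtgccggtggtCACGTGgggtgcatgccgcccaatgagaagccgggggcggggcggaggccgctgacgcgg
Dbp, chr7:45704997-45705246, plus strand: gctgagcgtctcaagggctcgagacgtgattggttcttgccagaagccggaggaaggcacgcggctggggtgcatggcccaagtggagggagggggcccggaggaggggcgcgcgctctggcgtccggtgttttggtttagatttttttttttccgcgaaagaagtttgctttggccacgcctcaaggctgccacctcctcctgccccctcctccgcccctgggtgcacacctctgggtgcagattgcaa
Arntl, chr7:113207531-113207557, plus strand: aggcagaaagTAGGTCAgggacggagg

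The E-box of Per1 begins 166 bases before an annotated start and that of Cry1 60 bases before. Per3 holds the same D-box letters at 2 places, beginning 205 and 158 bases before an annotated start. For Per1, Per3, Dbp and Arntl the start used lies inside the gene span given below. The bases shown thus lie wholly within the gene for Per1 and Arntl and partly within it for Per3 and Dbp. The ROR element of Arntl lies in the transcribed part, from 30 bases after a start. None of the 4 elements was found in the windows of Clock, Npas2, Cry2, Nr1d1 and Dbp, in a further window of Per1 or in a further window of Arntl. These matches describe the letters of the windows and show no binding.

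The comparison of the groups asked whether clock gene expression in the offspring striatum differed with the sire's treatment. None of the 10 members passed the test, against 4 of 17874 genes overall (0.0224%; edgeR quasi-likelihood test, adjusted p under 0.05). Mean Dbp in the MPH-sired group was 0.796 times that in the control group, and Dbp was the member whose groups did not overlap. Separation of this kind was seen in 7.01% of all genes with lower and in 7.84% with higher values. For the other 9 members the groups overlapped. At an unadjusted edgeR p under 0.05 there was 1 member, Dbp, against 1612 of 17874 genes (5.07% higher and 3.95% lower). Over both directions, 1 member of 10 on either count is near the share of all genes. DESeq2 called Dbp, among 183 genes called of 12853 with an adjusted p in that test, and limma-voom did not. Of the 10, 3 had positive and 7 negative log2 fold changes. Their median was -0.07, against -0.01 over all genes tested, where 53.0% were negative. A negative log2 fold change means a lower level in the MPH-sired group.

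**Figure D1:**
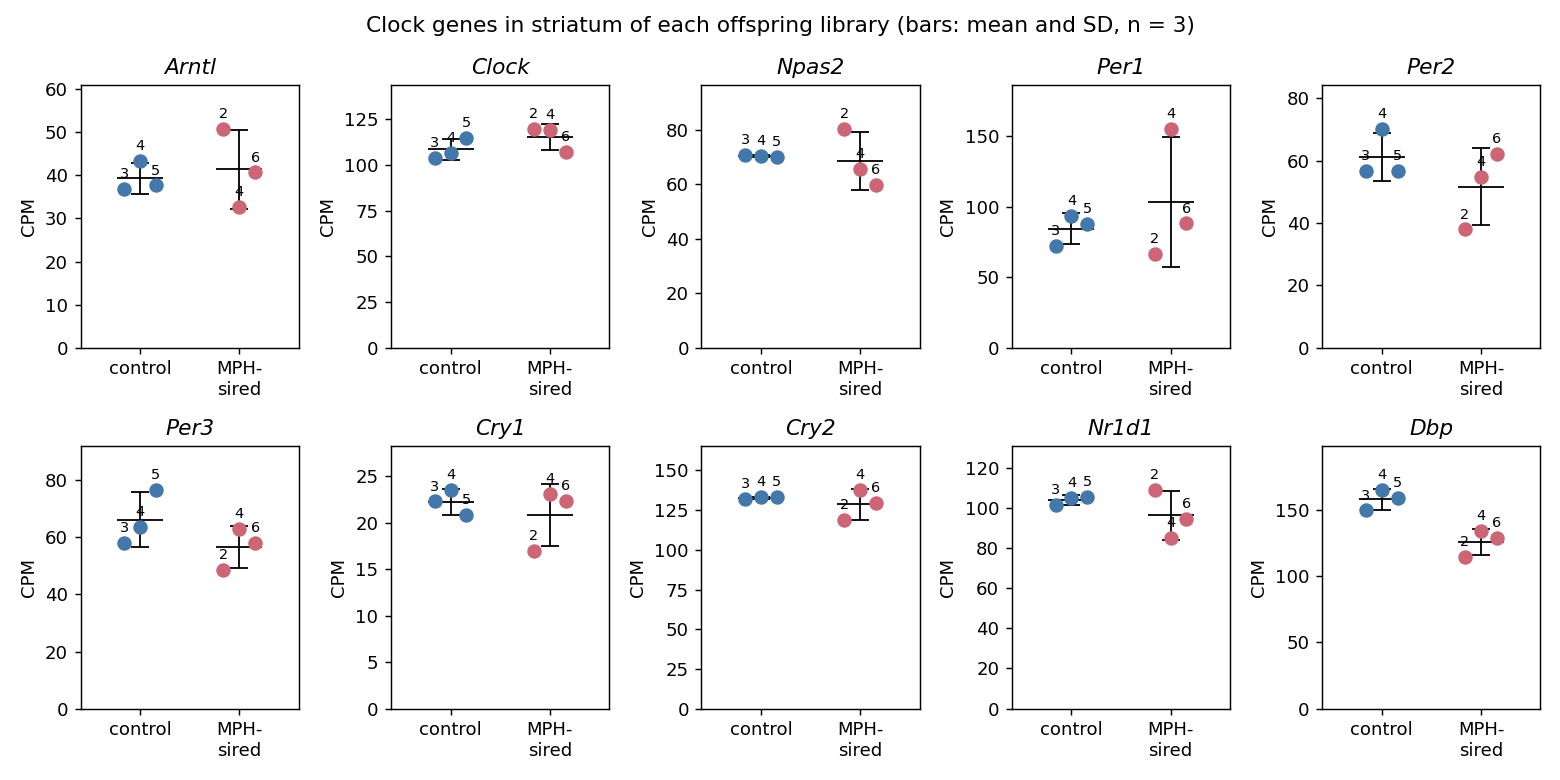
Level (CPM, linear axis from 0) of each of the 10 clock genes in 3 control (blue) and 3 MPH-sired (red) libraries, numbered by column; bars give the mean and SD. The groups are apart for Dbp, with 150 to 166 CPM against 115 to 134 CPM, and overlap for the other 9 genes.

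Dbp encodes the D-box activator that passes the clock's rhythm to output genes (Gene ID 13170, chr7:45705100-45710203). It stood at 150, 166 and 159 CPM in control libraries 3, 4 and 5 and at 115, 134 and 129 CPM in MPH-sired libraries 2, 4 and 6. All 3 MPH-sired libraries were thus below all 3 control ones. The means were 158 ± 8.0 and 126 ± 9.97 CPM (SD, n = 3). The log2 fold change was -0.33 (SE 0.07, 95% interval -0.50 to -0.16), with an edgeR adjusted p of 0.398 and an unadjusted edgeR p of 0.00184. An unadjusted p under 0.05 in the lower direction was found for 3.95% of all genes, and Dbp ranked 81 by p. DESeq2 called Dbp (log2 fold change -0.33, adjusted p = 0.0172), and in that test 38 of 12853 genes were called lower (0.296%). The fold change stayed between -0.37 and -0.25 without each library in turn, with edgeR adjusted p-values of 0.194 to 0.818.

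The annotated exons of Dbp share 539 bases, or 18.0% of their length, with Sphk2, a sphingosine kinase gene on the opposite strand. Strand use in counting was not stated, so the counts of this stretch are uncertain. Sphk2 itself was at 25.5, 24.2 and 22.0 CPM in the control libraries and at 24.2, 26.7 and 26.2 CPM in the MPH-sired ones. Its log2 fold change was 0.10 (edgeR adjusted p = 0.755), opposite in sign to that of Dbp.

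The summed levels of 2 cell type marker lists split the libraries in the same way as Dbp. Summed over 10 medium spiny neuron markers, the level was 7709 to 8373 CPM in the control group and 6613 to 7358 CPM in the MPH-sired group. All 10 had negative log2 fold changes (median -0.20). By edgeR 0 passed, with 7 at an unadjusted p under 0.05, and DESeq2 called 2. Summed over 10 markers of cortical excitatory neurons, it was 354 to 851 CPM and 1038 to 1215 CPM. All 10 were positive (median 0.91), with 0 past the edgeR test, 8 at an unadjusted p under 0.05 and 2 called by DESeq2. No marker of these 2 lists was at 0 in any library. Dbp had a log2 fold change of -0.29 (SE 0.11) when the cortical marker level entered the fit as a covariate. In that fit the edgeR adjusted p was 0.988 and the unadjusted edgeR p was 0.0311. The cortical level differs between the groups, so the fit does not separate it from the sire's treatment. Choroid plexus markers summed to 2111, 377 and 33.3 CPM in control libraries 3, 4 and 5 and to 38.4 to 89.4 CPM in the MPH-sired group, with Kcne2 at 0 in a library. All 10 had negative log2 fold changes (median -3.47). By edgeR 0 passed, with 9 at an unadjusted p under 0.05, and DESeq2 called 0. With the choroid plexus level as a covariate, Dbp had a log2 fold change of -0.34 (SE 0.09), with an edgeR adjusted p of 0.902 and an unadjusted edgeR p of 0.00661. For the choroid plexus, oligodendrocyte, astrocyte, endothelial and microglia markers the summed levels of the groups overlapped. The part of tissue makeup in the Dbp values was not tested. In bulk tissue fewer cells of a type and less RNA per cell cannot be told apart.

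**Figure D2:**
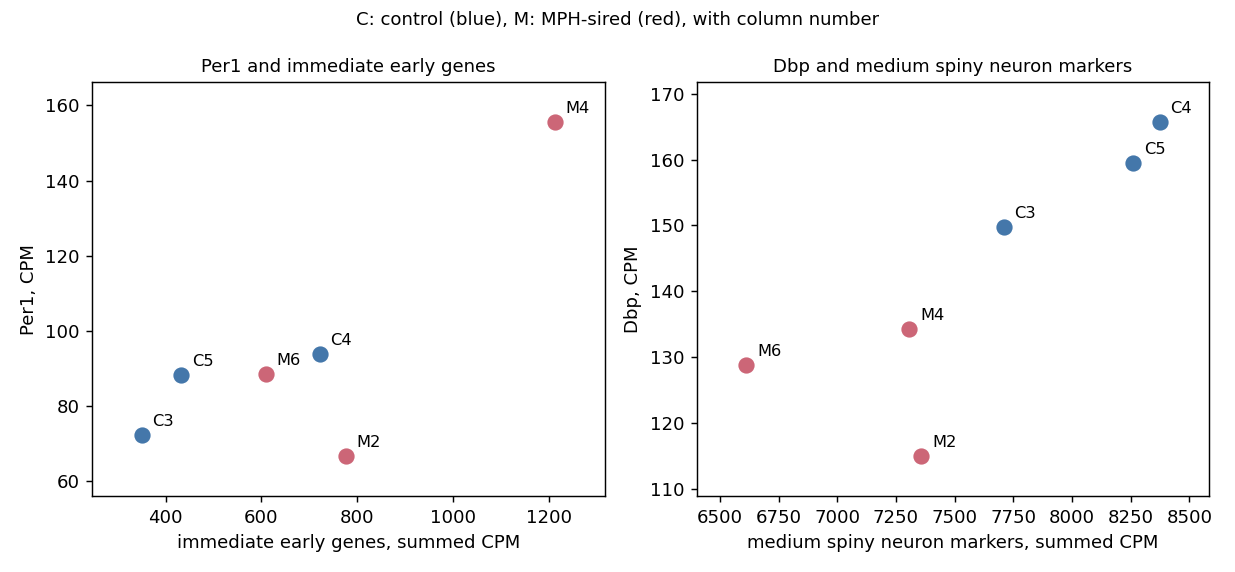
Left, Per1 (CPM) against the summed CPM of 12 immediate early genes; right, Dbp (CPM) against the summed CPM of 10 medium spiny neuron markers, each point a library (axes do not start at 0). MPH-sired library 4 is highest on both axes at left (155 CPM of Per1), and the 3 control libraries are highest on both axes at right.

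The 3 activators of the positive limb showed no difference past the test. Arntl, the partner shared by both activator pairs (Gene ID 11865, chr7:113178471-113314126), was at 36.8, 43.4 and 37.7 CPM in the control and at 50.8, 32.6 and 40.7 CPM in the MPH-sired libraries. The highest and the lowest library both belonged to the MPH-sired group. Its log2 fold change was 0.07 (SE 0.15, adjusted p = 0.914 by edgeR), and it was -0.08 without MPH-sired library 2 and 0.23 without MPH-sired library 4. Clock, which also acetylates histones (Gene ID 12753, chr5:76209868-76305603), was at 104, 107 and 115 CPM and at 120, 119 and 107 CPM. Its log2 fold change was 0.09 (SE 0.07, 95% interval -0.07 to 0.24, edgeR adjusted p = 0.734). It was 0.05 without control library 3 and 0.14 without control library 5 or MPH-sired library 6. It was 0.05 with the cortical and 0.03 with the choroid plexus level as a covariate, and for Arntl these were 0.24 and 0.03.

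Npas2 is the CLOCK paralog known for its expression in the forebrain (Gene ID 18143, chr1:39193702-39363240). It was at 70.7, 70.4 and 70.0 CPM in the control libraries and at 80.4, 65.7 and 59.8 CPM in the MPH-sired ones, which lay on both sides of the control values. The log2 fold change was -0.04 (SE 0.10, 95% interval -0.27 to 0.20, edgeR adjusted p = 0.946). Its sign turned without MPH-sired library 4 (0.01) or 6 (0.05).

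Among the repressors, the 3 Per genes did not share a direction. Per1 (Gene ID 18626, chr11:69095108-69109965) was at 72.2, 93.7 and 88.2 CPM in the control libraries and at 66.5, 155 and 88.3 CPM in the MPH-sired libraries 2, 4 and 6. Library 4 was 2.34 times as high as library 2 of the same group, and these were the highest and lowest of all 6. The log2 fold change was 0.29 (SE 0.27, 95% interval -0.33 to 0.91, edgeR adjusted p = 0.783). Without MPH-sired library 4 it was -0.11, and without MPH-sired library 2 it was 0.54 (edgeR adjusted p = 0.588).

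Immediate early genes, which neurons switch on with activity, were also highest in MPH-sired library 4. Over 12 of them the summed level was 350, 722 and 433 CPM in the control libraries and 776, 1213 and 609 CPM in the MPH-sired ones. All 12 had positive log2 fold changes (median 0.66), and 0 were at 0 counts. By edgeR 0 passed, with 4 at an unadjusted p under 0.05, and DESeq2 called 0. Library 2, which was lowest in Per1, had the next highest immediate early level. The summed level of 10 glucocorticoid response genes was 319 to 339 CPM in the control group and 282 to 380 CPM in the MPH-sired group. It too was lowest in library 2 and highest in library 4 of the MPH-sired group. A fit added after the values were seen took the immediate early level as a covariate. There the Per1 estimate was -0.04 on the log2 scale, and its SE was 0.34, against 0.27 without the covariate. The adjusted p by edgeR was 0.992. Since all 12 immediate early genes were shifted toward the MPH-sired group, that fit cannot separate their level from the sire's treatment. The part of activity or corticosteroids in the Per1 values was not tested.

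Per2 (Gene ID 18627, chr1:91415977-91459351) was at 56.6, 70.2 and 56.8 CPM in the control and at 38.0, 54.9 and 62.0 CPM in the MPH-sired libraries. MPH-sired library 2 was low, and the other 2 were inside or near the control range. The log2 fold change was -0.24 (SE 0.17, adjusted p = 0.708 by edgeR), -0.05 without that library and -0.40 without MPH-sired library 6. It was -0.09 with the cortical level as a covariate. Per3, a Per gene not required for the core loop (Gene ID 18628, chr4:150997018-151044707), was at 58.2, 63.6 and 76.8 CPM and at 48.6, 63.1 and 57.9 CPM. Its groups overlapped as well, with a log2 fold change of -0.23 (SE 0.13, adjusted p = 0.629 by edgeR), which was -0.09 without control library 5 and -0.11 without MPH-sired library 2. It was -0.37 with the cortical level as a covariate (edgeR adjusted p = 0.988) and -0.35 with the choroid plexus level, with an edgeR adjusted p of 0.902 and an unadjusted edgeR p of 0.0315. Within a library, Per1 stood at 1.28, 1.33 and 1.55 times the CPM of Per2 in the control group and at 1.75, 2.83 and 1.42 times in MPH-sired libraries 2, 4 and 6. That ratio does not depend on library scaling, and the groups overlapped in it.

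The cryptochromes, which bind CLOCK and ARNTL and block them, had log2 fold changes near 0. Cry1 (Gene ID 12952, chr10:85131700-85185054) was at 22.3, 23.6 and 20.8 CPM in the control libraries and at 17.0, 23.1 and 22.4 CPM in the MPH-sired ones. Library 2 of the MPH-sired group was again the lowest. The log2 fold change was -0.10 (SE 0.13, adjusted p = 0.849 by edgeR), 0.05 without that library and -0.16 without MPH-sired library 4. With the cortical or the choroid plexus level as a covariate it was -0.02. Cry2 (Gene ID 12953, chr2:92403646-92434085) was at 132, 133 and 133 CPM and at 119, 138 and 130 CPM. Its log2 fold change of -0.04 had the smallest SE of the 10 members (0.07, 95% interval -0.20 to 0.11, edgeR adjusted p = 0.870). It was 0.03 without MPH-sired library 2.

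Nr1d1, the REV-ERB alpha gene of the second loop (Gene ID 217166, chr11:98767932-98775377), was at 101, 105 and 106 CPM in the control libraries. In MPH-sired libraries 2, 4 and 6 it was at 109, 85.0 and 94.6 CPM, so that library 2 was the highest and library 4 the lowest of the 6. The log2 fold change was -0.11 (SE 0.09, 95% interval -0.32 to 0.09, edgeR adjusted p = 0.743). It was -0.20 without library 2 and -0.02 without library 4 of that group. The exons of Nr1d1 share 263 bases (8.55% of their length) with the opposite strand of Thra, a thyroid hormone receptor gene at 490 to 589 CPM. Since strand use is not given, some reads of Thra may stand in the counts of Nr1d1. Among other members, exons of Cry2 overlapped those of a noncoding gene that reached at most 0.251 CPM, and exons of Arntl shared 33 bases with an antisense gene.

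MPH-sired libraries 2 and 4 stood at opposite ends of 4 members. Library 2 was the highest of all 6 libraries in Arntl and Nr1d1 and the lowest in Per1 and Cry2, while library 4 was the lowest in Arntl and Nr1d1 and the highest in Per1 and Cry2. Npas2 was highest in library 2 and Clock was highest there too, with library 4 next. Library 2 was also the lowest in Per2, Per3, Cry1 and Dbp. On the log2 scale, library 2 deviated from the gene's mean over the 6 libraries by 0.35 in Arntl, -0.44 in Per1 and -0.55 in Per2. Library 4 deviated by -0.29 in Arntl and 0.78 in Per1. The share of all genes with libraries 2 and 4 at opposite ends was not computed. The pattern describes these members and is not shown to be particular to them.

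**Figure D3:**
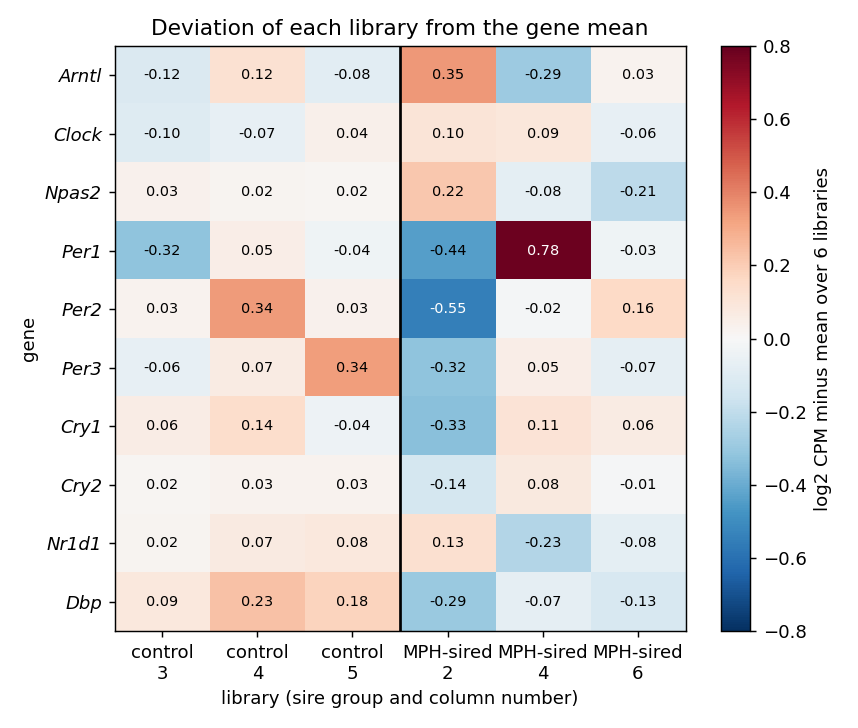
Deviation of each library's log2 CPM from the gene's mean over the 6 libraries, for 10 clock genes (rows) and 6 libraries (columns, named by sire group and number); red is above and blue below the mean. The largest deviations are in MPH-sired libraries 2 (-0.55 in Per2) and 4 (0.78 in Per1).

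The MPH-sired libraries were more spread than the control ones in 9 of the 10 members, Per3 being the exception. Over all genes with counts in every library, the MPH-sired SD was the larger in 42.8%. Over the members, the median SD of log2 CPM was 0.08 in the control and 0.21 in the MPH-sired group, against 0.15 and 0.13 over all genes. Cry2 had an SD of 0.01 among control and 0.11 among MPH-sired libraries, and Npas2 had 0.01 and 0.22. Per1 had 0.20 and 0.62. The control SDs of Cry2 and Npas2 were smaller than counting error alone would give. For Npas2 that error was 2.22% of the value at its lowest count. The closeness of these control values is therefore no measure of a small spread between animals. With 3 libraries a group and the same libraries behind every gene, the 9 members are not separate observations of that spread. No test of it was made.

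Arntl was related to each of the other 9 members across the 6 libraries. The largest Pearson r was that with Cry2 (-0.89, exact permutation p = 0.0139, adjusted p = 0.125 over 9 relations; Spearman rho -0.71, exact permutation p = 0.136, adjusted p = 0.613). With Nr1d1 it was 0.75 (exact permutation p = 0.0931, adjusted p = 0.294; rho 0.71, exact permutation p = 0.136, adjusted p = 0.613), a positive relation between an activator gene and its repressor gene. With Per1 it was -0.71 (exact permutation p = 0.119, adjusted p = 0.294; rho -0.43, exact permutation p = 0.419, adjusted p = 0.803). For the other 6 members r lay between -0.69 (Cry1) and 0.58 (Npas2), and none of the 9 passed after adjustment. Without MPH-sired libraries 2 and 4, the farthest from the median of Arntl, r was -0.10 with Cry2, -0.06 with Nr1d1 and 0.78 with Per1 over 4 libraries. These relations rest on those 2 libraries. A group holds 3 libraries, too few to repeat them within it.

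The genes most like a member were taken as a description from 12743 other genes by Pearson r over the 6 libraries. Those most like Arntl were Brf2 (0.99), Vps29 (0.98), Dglucy (0.97), Zfp300 (0.97) and Gtpbp4 (0.97). Those most like Dbp were Slc50a1 (0.99), B3galt5 (0.99), Zfp930 (0.99), Snapc4 (0.98) and Mrpl24 (0.98), and all 5 had negative log2 fold changes, from -0.38 to -0.16. None of these 10 belongs to the clock lists. With 6 points and this many genes, values of this size are no sign of a shared role.

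Levels between members were compared as CPM per kilobase of merged exons. Dbp was the most abundant at 47.5 ± 6.50 (SD over 6 libraries), followed by Nr1d1 at 32.5 ± 2.90 and Cry2 at 20.7 ± 1.04. Per1 (16.7 ± 5.66), Npas2 (14.5 ± 1.42), Per2 (9.63 ± 1.81) and Clock (8.15 ± 0.50) came next. Cry1 (6.44 ± 0.721), Per3 (6.39 ± 0.966) and Arntl (5.36 ± 0.836) were the lowest. The ranges over the 6 libraries overlapped between Cry2 and Per1, Per1 and Npas2, Per2 and Clock, Cry1 and Per3, and Per3 and Arntl. Within single libraries, the order of each of these pairs also turned. Per1 was above Cry2 in MPH-sired library 4 (27.6 against 21.8). Npas2 was above Per1 in control library 3 and MPH-sired library 2. In MPH-sired library 2, Clock was above Per2 and Arntl above Per3. Per3 was above Cry1 in control library 5. The order of the means held in the remaining libraries of each pair. Npas2 was above Clock in level per length, with ranges of 12.5 to 16.8 and 7.58 to 8.72. In CPM the order was the reverse in every library, with 59.8 to 80.4 for Npas2 and 104 to 120 for Clock. The merged exons of all annotated transcripts span 4791 bases for Npas2 and 13727 for Clock, so the order depends on that length.

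The rest of the pathway was read from 21 further clock genes, all of which were tested. None passed the edgeR test, DESeq2 and limma-voom called 0, and 9 had positive and 12 negative log2 fold changes (median -0.0087). At an unadjusted edgeR p under 0.05 there was 1 gene higher and 1 lower, against 5.07% and 3.95% of all genes. The gene with higher values was Rorb, an ROR nuclear receptor gene known from retina and cortex, at 20.0, 22.2 and 24.1 CPM in the control and at 25.8, 27.8 and 31.4 CPM in the MPH-sired libraries. Its groups did not overlap, and its log2 fold change was 0.36 (SE 0.11, adjusted p = 0.452 by edgeR). It was 0.28 (SE 0.16, adjusted p = 0.988 by edgeR) when the cortical marker level entered the fit. The gene with lower values was Usp2, a ubiquitin protease gene with rhythmic expression, at 81.8, 79.3 and 83.8 CPM and at 73.6, 65.3 and 70.8 CPM. Its log2 fold change was -0.22 (SE 0.07, adjusted p = 0.452 by edgeR), with groups apart.

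Other genes with groups apart were Tef and Wee1. These and the others of the list given with values, apart from Rorb and Usp2, were chosen after their values were seen. Tef, a D-box activator like Dbp, was at 434 to 498 CPM in the control and 401 to 434 CPM in the MPH-sired group (log2 fold change -0.16, SE 0.07, adjusted p = 0.564 by edgeR). The groups of Tef touched, at 434.5 and 434.2 CPM. Wee1, a cell cycle kinase gene, had 0.11 (SE 0.08, adjusted p = 0.716 by edgeR). In all, 2 of the 21 were apart with higher and 2 with lower values, against 7.84% and 7.01% of all genes. Hlf, the remaining D-box activator, had -0.05 (SE 0.08), and the D-box repressor gene Nfil3 had 0.31 (SE 0.18). Dbp stood at 0.345, 0.353 and 0.320 times the CPM of Tef in control libraries 3, 4 and 5 and at 0.287, 0.309 and 0.304 times in MPH-sired libraries 2, 4 and 6. This ratio was lower in all 3 MPH-sired libraries, by a small gap (0.309 against 0.320 at the nearest). Dbp was already known to be apart between the groups, and the share of all gene pairs with such a separation was not computed. Ratios of Per2 to Arntl and of Cry2 to Cry1 overlapped between the groups. The groups overlapped in the ratio of Dbp to Per3 (2.58, 2.60 and 2.08 against 2.36, 2.13 and 2.22) and in that of Dbp to Arntl (4.07, 3.81 and 4.23 against 2.26, 4.11 and 3.17).

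Elsewhere in the loop, the other REV-ERB gene, Nr1d2, had -0.11 (SE 0.09) and Rora 0.15 (SE 0.13). The E-box repressor genes Bhlhe40, Bhlhe41 and Ciart had 0.28 (SE 0.22), -0.13 (SE 0.09) and -0.21 (SE 0.16). The 6 genes of kinases and ubiquitin ligases that set the turnover of PER and CRY proteins, such as Csnk1d and Csnk1e, had a median of 0.0016, with 3 positive and 3 negative. For Csnk1d the 95% interval was -0.14 to 0.12 (edgeR adjusted p = 0.979). Arntl2, the Arntl paralog, had the lowest value (-0.82, SE 0.38, edgeR adjusted p = 0.569) at 0.689 to 2.57 CPM, and its groups overlapped.

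**Figure D4:**
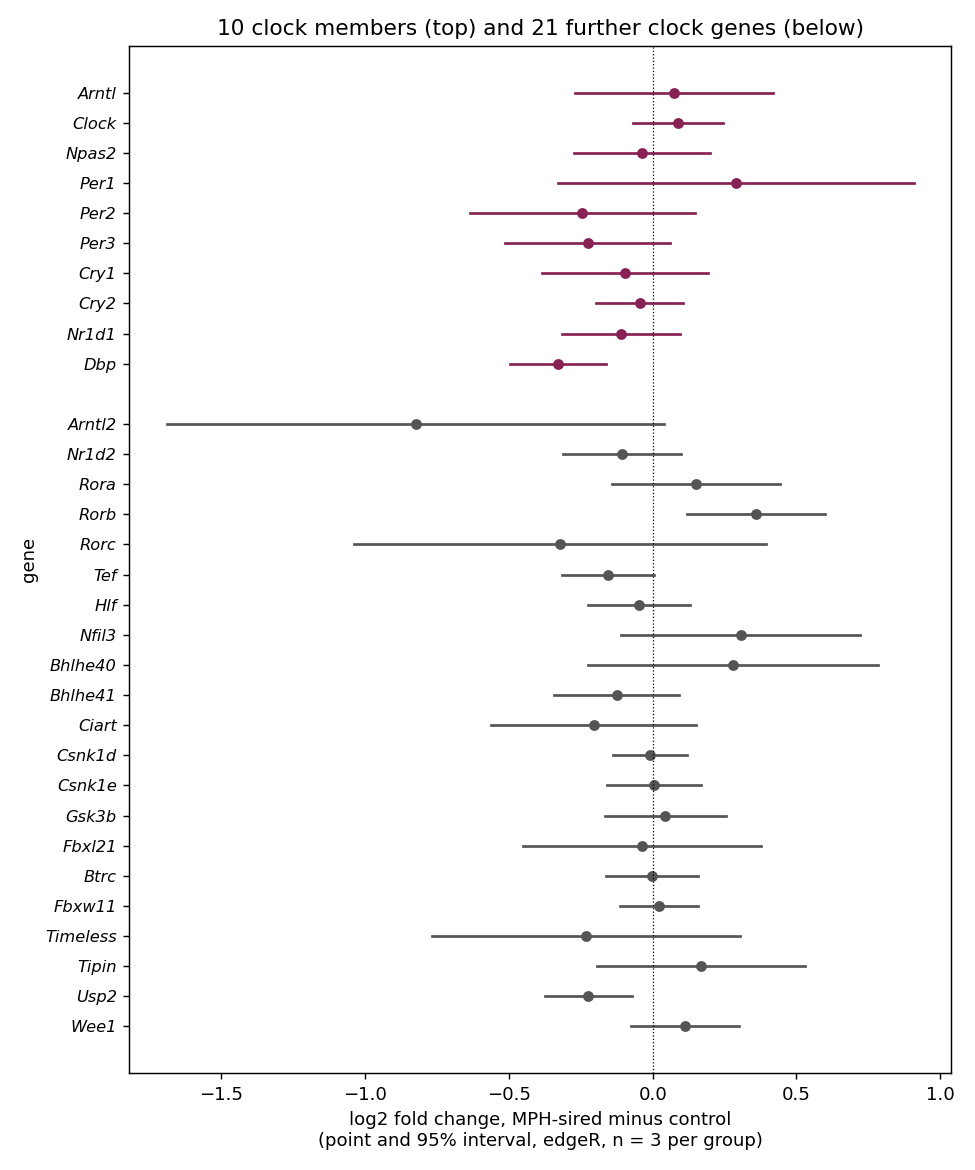
Log2 fold change (point) and 95% interval (line) of the 10 members, top, and 21 further clock genes, below, from the edgeR fit over all genes with 3 libraries per group; intervals are for each gene alone. Intervals of Dbp, Rorb and Usp2 lie to 1 side of 0, and no gene passed after adjustment over all genes.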

How the data were processed

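Per the submitters' processing notes, bcl2fastq 2.20.0, Trimmomatic, HISAT2 2.1.0 and StringTie 2.1.3b were used with mm10. Settings, strand use and handling of multiply mapped reads (not given in the sources used here) could change counts of overlapping genes. In the authors' deposited table are whole-number read counts per gene, not normalized. Its column names give group and number only. A further 12 columns of per-sample values were not used.

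Counts of all genes were tested with the edgeR 4.0.16 quasi-likelihood F test (R 4.3.3) after TMM scaling and filterByExpr, with Benjamini-Hochberg adjustment over all genes tested and a threshold of 0.05. Sex was no covariate, since no column is tied to a labelled animal. SE values come from the fold change and F statistic. DESeq2 1.42.0, limma-voom 3.58.1, other scalings, no filter, marker-level covariates and leaving out each library were the alternatives, and the scripts were tested on simulated data. Relations used exact two-sided permutation tests (scipy 1.17.1). Exon lengths came from GENCODE vM21, and coordinates and promoters from RefSeq GRCm38.p6. By blastn 2.17.0 (at least 95% identity over 200 bases), members matched no gene other than the overlapping Sphk2 and Thra.

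The naming rule took all members, genes of the further clock list with an unadjusted p under 0.05, and the 5 genes most like Arntl and Dbp. Other genes of the further list were named outside this rule, after their values were seen. Members and lists were chosen with earlier results of these data known. A gene of the further clock list is not reported here.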

Additional observations from a re-analysis of the deposited data

How the results depend on the processing

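The 10 members, Rorb and Usp2 were refitted under 14 other settings, and 159 of 168 fold changes kept their sign and their side of the threshold. Dbp alone gained a call, with DESeq2 (adjusted p = 0.0172), so that DESeq2 called 1 of the 10 members, against 0 under the other 13 settings. DESeq2 called 183 genes in all, of 12853 that had an adjusted p in that test. Over all genes, edgeR called 1 when the cortical level was a covariate, 2 for the choroid plexus level and 1 for the immediate early gene level, the last of which was added after seeing the data. Leaving out each library gave 1 (without MPH-sired library 6) to 4 called genes, 0 clock members and 0 further clock genes. The cause of these differences was not tested. Signs reversed in 8 fits. These were Npas2 under the cortical covariate (0.0084), Per1 with the immediate early level (-0.0362), and, without a library, Arntl (range -0.0841 to 0.23), Npas2 (-0.15 to 0.0545), Per1 (-0.11 to 0.54), Cry1 (-0.16 to 0.0463) and Cry2 (-0.0839 to 0.0269). No paired analysis was possible because the count columns carry numbers of their own (3, 4 and 5 against 2, 4 and 6), which share fewer than 2 numbers and match no labelled pair. The 95% intervals of Per1 and Per2 reach 0.91 and -0.64 on the log2 scale, so differences up to that size are not excluded.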
